A study of Mus musculus with 22 samples.

Results

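The 9 genes described here encode transcription factors of retinal bipolar cells: Isl1, Prdm8, Sebox, Vsx1, Lhx4, Irx6, Irx5, Bhlhe23 and St18. They were chosen by gene symbol, and all 9 were present among the 13812 genes of the deposited table. Messenger RNA had been sequenced from cells sorted from the mouse retina, in 22 libraries that formed 11 groups of 2. The groups were rod bipolars and cone bipolars at postnatal day 13 (P13), bipolars at P7, P13 and P30, and rods and cones at the same 3 ages. The labels name only age, tissue and cell type, and leave strain, genotype and the marker used for sorting unstated. They do not say that paired libraries were made from different mice, so each p-value reflects only the spread between these libraries.

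Bipolar cells are the interneurons that carry the signal of rods and cones to the inner retina. Rod bipolars contact rods, and cone bipolars contact cones and are divided into ON types, which use the glutamate receptor mGluR6, and OFF types, which use ionotropic glutamate receptors. The identity of each type is set by combinations of homeodomain, basic helix-loop-helix and zinc finger factors, most of which have been studied in knockout mice. Isl1, Lhx4, Vsx1, Sebox, Irx5 and Irx6 are homeodomain proteins, Bhlhe23 is a basic helix-loop-helix protein, Prdm8 carries a PR domain and zinc fingers, and St18 is a zinc finger protein of the Myt family.

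Values are CPM, read counts scaled by the authors to library size, or their log2. Recovered totals ran from 14.4 to 54.4 Mreads per library, so that 3 reads stood for 0.0541 to 0.170 CPM. A gene was called when its Benjamini-Hochberg adjusted p from limma, fitted to all 22 libraries and 13405 genes, was under 0.05 and its log2 fold change was at least 1 in either direction. All 9 genes passed the filter on low values. For Isl1, Vsx1, Lhx4, Bhlhe23 and St18 the spread in that fit was larger in rods and cones than in bipolars: the root mean square SD of log2 CPM was 0.12 to 0.32 in the 5 bipolar groups and 2.20 to 3.58 in the 6 rod and cone groups. For Lhx4 the SD was 0.35, 0.35 and 0.90 in cones at the 3 ages, where the gene was abundant, and up to 4.70 in rods. For Sebox it was 0.21 in the bipolar groups and 0.76 in rods and cones, and for Prdm8 0.16 and 0.40. A fit to the compared libraries alone is therefore given beside the first comparison.

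On the mouse assembly GRCm38, with GENCODE M21 annotation, Isl1 lies on chromosome 13 (chr13:116298281-116309689, minus strand), Prdm8 on chromosome 5 (chr5:98167198-98188991, plus strand) and Sebox on chromosome 11 (chr11:78503447-78505081, plus strand). Vsx1 (chr2:150680702-150689360, minus strand) and Bhlhe23 (chr2:180774381-180776900, minus strand) share chromosome 2. Lhx4 (chr1:155698031-155751684, minus strand) and St18 (chr1:6487231-6860940, plus strand) share chromosome 1. The Iroquois genes Irx5 (chr8:92357625-92376286) and Irx6 (chr8:92674288-92680956) lie on the plus strand of chromosome 8 with 298 kb between them. Exons of Prdm8 overlap the antisense gene A730035I17Rik over 1411 bases, and exons of Irx6 overlap the antisense gene Gm45505 over 152 bases. Bhlhe23 shares 144 exon bases with Gm14343 on its own strand. Nothing states whether reads were counted by strand, so reads of Prdm8, Irx6 and Bhlhe23 in these stretches cannot be told apart from those of their partners.

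Promoter sequence in RefSeq (GRCm38.p6) was matched for 6 of the 9 genes, Vsx1, Isl1, Sebox, Bhlhe23, Lhx4 and Prdm8. The stretches before the RefSeq starts of Isl1, Prdm8 and Sebox, the genes with higher levels in rod bipolars than in cone bipolars, are shown in the direction of the gene and hold no annotated exon. The RefSeq start of Prdm8 lies 13671 bases inside the gene as annotated by GENCODE, so that its stretch is internal to the gene and not upstream of its first exon. That of Lhx4 lies 9657 bases inside its gene, that of Vsx1 223 bases and that of Sebox 66 bases. Both matches in Vsx1 given below therefore lie inside the annotated gene. Capitals mark matches to GGATTA, the core bound by OTX2 and CRX (read as TAATCC on the opposite strand), and to the E-box CAGCTG.
Isl1, chr13:116309690-116309938, minus strand: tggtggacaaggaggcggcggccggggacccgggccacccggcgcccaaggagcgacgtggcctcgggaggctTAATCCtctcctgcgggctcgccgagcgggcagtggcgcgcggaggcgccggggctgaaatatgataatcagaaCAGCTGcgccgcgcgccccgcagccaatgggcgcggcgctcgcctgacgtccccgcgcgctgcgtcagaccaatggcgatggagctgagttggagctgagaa
Prdm8, chr5:98180619-98180868, plus strand: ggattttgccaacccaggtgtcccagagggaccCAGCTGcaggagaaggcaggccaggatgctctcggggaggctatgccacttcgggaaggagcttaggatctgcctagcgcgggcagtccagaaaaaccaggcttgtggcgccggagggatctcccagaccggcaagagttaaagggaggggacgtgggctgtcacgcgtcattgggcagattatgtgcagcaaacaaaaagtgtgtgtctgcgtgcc
Sebox, chr11:78503263-78503446, plus strand: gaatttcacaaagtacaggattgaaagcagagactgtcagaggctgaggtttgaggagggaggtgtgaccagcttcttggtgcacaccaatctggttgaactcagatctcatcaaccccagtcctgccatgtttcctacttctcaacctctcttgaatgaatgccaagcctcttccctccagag
In windows from 250 bases before to 50 after the RefSeq start, searched on both strands, Isl1 held GGATTA at -177 and CAGCTG at -103, Prdm8 held CAGCTG at -217 and CAGATG at 22, and Vsx1 held CAGCTG at -79 and -44. A search for the homeodomain core TAATTA found none in the 6 windows, and those of Sebox, Bhlhe23 and Lhx4 held none of the 4 motifs. Of 32544 promoters searched, 7.06% held GGATTA and 5.29% held TAATTA. The E-box CAGCTG was in 16.4% of them, and the E-box CAGATG was in 17.1%. These matches describe letters and do not show binding.

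The sorted populations were checked against marker genes. The summed level of 6 rod bipolar markers was 12619.5 and 14769 CPM in rod bipolars, against 1621 and 1673 CPM in cone bipolars. Scgn, a calcium-binding protein of cone bipolars, had 25.4 and 20.6 CPM in rod bipolars, against 709.9 and 459 CPM in cone bipolars, while the sum of all 5 cone bipolar markers in the table overlapped between the classes. The series' design text calls the bipolars ON-bipolar cells. In the group labelled bipolars at P13, the 7 ON markers summed to 2530 and 2208 CPM. Their sums were 9698 and 9912 CPM in rod bipolars and 2978 and 3190 CPM in cone bipolars. The OFF markers Fezf2, Tacr3 and Nxph1 were present in bipolars too, with means of 67.9, 68.9 and 79.0 CPM. Their means were 1.83, 1.60 and 1.19 CPM in rod bipolars and 3.52, 4.13 and 2.92 CPM in cone bipolars. The other 2 OFF markers did not stand apart in this way, with Grik1 at 217 CPM in bipolars, 238 CPM in rod bipolars and 129 CPM in cone bipolars, and Syt2 at 9.16, 0.722 and 8.39 CPM. Which bipolar types the group labelled bipolars held was not tested. RNA of other cells was also present. In bipolars at P30 the summed Müller glia markers came to 3987 and 6163 CPM, against 3805 and 3191 CPM for the rod bipolar markers. The summed rod markers came to 696 and 389 CPM in rod bipolars and 1020.3 and 562 CPM in cone bipolars, against 26719 and 31384 CPM in rods at P13. The summed amacrine markers came to 22.7 and 146 CPM in rod bipolars and 33.9 and 95.5 CPM in cone bipolars, with reads for all 6 measured markers. Of the marker genes of all lists, Prkca (5671 CPM in rod bipolars, against 246 CPM in cone bipolars) was called higher in rod bipolars. Scgn, the Müller glia marker Glul (61.4 against 185 CPM), the cone markers Gnat2 (24.7 against 95.3 CPM) and Gngt2 (6.68 against 63.2 CPM) and the microglia marker C1qa (0 against 2.11 CPM) were called lower. The part of these cells in the results was not tested.

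**Figure D1:**
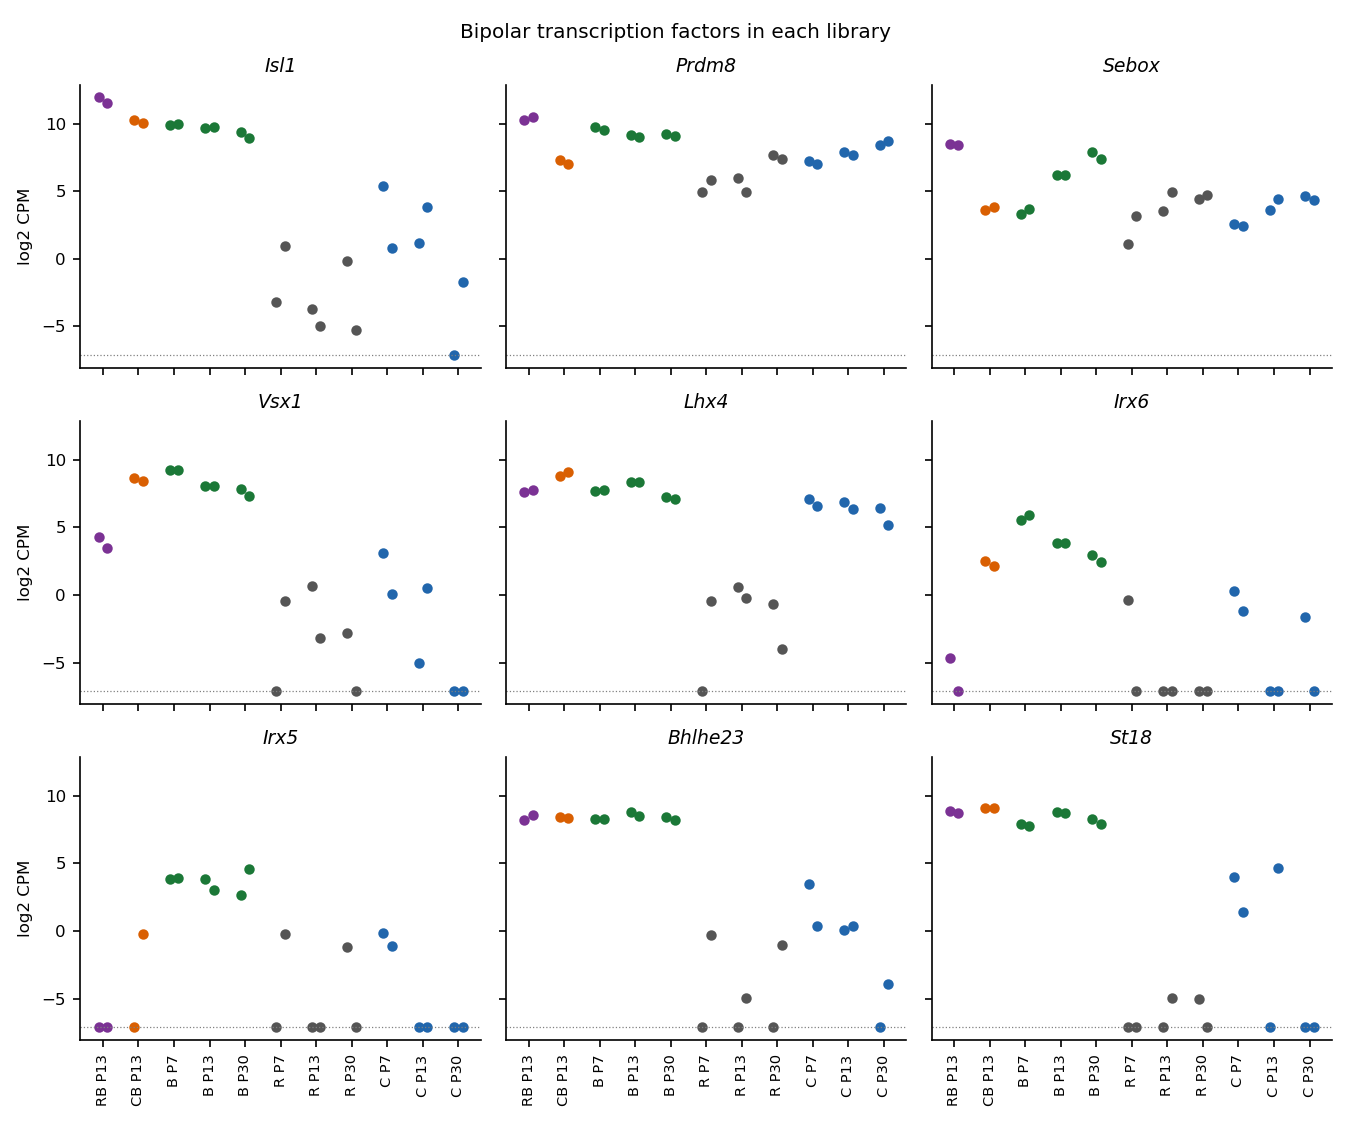
Level of each of the 9 genes in each library, as log2 CPM on the vertical axis, with rod bipolars (RB), cone bipolars (CB), bipolars (B), rods (R) and cones (C) along the horizontal axis and 1 point per library. The dotted line marks a gene without reads, at -7.10. Prdm8 and Sebox had reads in all 22 libraries, Lhx4 stayed above 5 in cones and below 1 in rods, and Irx5 and Irx6 had at most 1 read in each rod bipolar library.

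The first comparison asked how the 2 sorted bipolar classes differed at P13. In cone bipolars the OFF markers Fezf2, Tacr3 and Nxph1 averaged 3.52, 4.13 and 2.92 CPM, and Grik1 and Syt2 129 and 8.39 CPM. Whether that group held all cone bipolar types was not tested. Sebox and Prdm8 rose in rod bipolars relative to cone bipolars and Irx6 fell, and these 3 of 9 genes were called. Over all genes tested, 1.51% were called higher and 3.17% lower in rod bipolars, 4.68% in all. In the fit to the 4 compared libraries, where 5.88% of all genes were called (2.13% higher and 3.74% lower), Isl1 was also called higher and Vsx1 and Lhx4 lower, which made 6 of 9. On recovered reads with limma's voom, an alternative chosen after seeing the data, 3 were called higher and 3 lower, beside 6.68% of all genes (2.68% higher and 4.01% lower). Bhlhe23 and St18 were abundant in each class and were not called in either fit. In sorted bulk RNA, fewer cells of a type and less RNA per cell cannot be told apart.

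Sebox, a paired-type homeobox gene known for its role in mouse oocytes, had 362 and 348 CPM in rod bipolars, against 12.5 and 14.4 CPM in cone bipolars. The libraries of each class lay close together and far from those of the other class. The log2 fold change was 4.73 ± 0.53 (SE), a 26.5-fold rise, with an adjusted p of 5.4e-05. It was 4.62 to 4.83 under the 11 alternatives and was called in all of them.

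Prdm8, needed in mice for rod bipolars and for a type of OFF cone bipolar, had 1268 and 1417 CPM in rod bipolars, against 163 and 128 CPM in cone bipolars. These groups did not overlap either. The log2 fold change was 3.21 ± 0.29, a 9.28-fold rise with an adjusted p of 5.1e-06, and it was called under all 11 alternatives, between 3.04 and 3.39.

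Isl1, a LIM homeodomain factor of ON bipolars and rod bipolars, had 3959.8 and 3037 CPM in rod bipolars, against 1212 and 1064 CPM in cone bipolars. It was high in each class and its libraries did not overlap. The log2 fold change of 1.61 ± 1.85 was not called in the fit to all libraries (adjusted p 0.770) and was called in the fit to the compared libraries, with an SE of 0.24 and an adjusted p of 0.0396.

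Vsx1, a paired-like homeodomain factor of cone bipolars, had 20.0 and 11.3 CPM in rod bipolars, against 399 and 339 CPM in cone bipolars. The groups were far apart, and the level left in rod bipolars rested on 617 and 224 reads. The log2 fold change was -4.61 ± 2.07 with an adjusted p of 0.256 in the fit to all libraries, and -4.61 ± 0.31 with an adjusted p of 0.01 in the fit to the compared libraries. With voom it was -4.51, with an adjusted p of 1.1e-05.

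Lhx4, a LIM homeodomain factor of cones and cone bipolars, had 196 and 215 CPM in rod bipolars, against 438 and 549 CPM in cone bipolars. It was present in each class, at a lower level in rod bipolars. The log2 fold change was -1.26 ± 1.40 with an adjusted p of 0.760 in the fit to all libraries, and -1.26 ± 0.17 with an adjusted p of 0.0304 in the fit to the compared libraries.

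Irx6, an Iroquois factor of OFF cone bipolars in mice, had 0.0324 and 0 CPM in rod bipolars, against 5.65 and 4.31 CPM in cone bipolars. These values stood for 1 read in rod bipolars, against 262 reads in cone bipolars, a ratio that was 252-fold lower in rod bipolars, with a 95% interval of 44.8 to 9981 that covers counting error only. Irx6 was called at a log2 fold change of -8.19 ± 1.97 (adjusted p 0.0212), a fitted value that depends on the small value added before the log and ran from -9.41 to -2.55 over the alternatives. The call was lost without rod bipolar replicate 2 (adjusted p 0.125), cone bipolar replicate 1 (0.122) or cone bipolar replicate 2 (0.117). Irx5, its neighbour on chromosome 8, had no reads in rod bipolars, against 0 and 0.848 CPM in cone bipolars, and was not called (adjusted p 0.527). At 0 reads, the limit over the rod bipolar libraries was 0.0591 CPM.

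Bhlhe23, which in mice is needed for the maturation of rod bipolars, had 304 and 379 CPM in rod bipolars, against 355 and 330.0 CPM in cone bipolars. The groups overlapped fully. Its log2 fold change was -0.01 with a 95% interval of -4.16 to 4.13 in the fit to all libraries, and its SE was 0.16 in the fit to the compared libraries. St18 had 468 and 433 CPM in rod bipolars, against 560.2 and 551 CPM in cone bipolars. Its groups did not overlap, and its log2 fold change of -0.30 was not called in either fit (adjusted p 0.986 and 0.261).

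**Figure D2:**
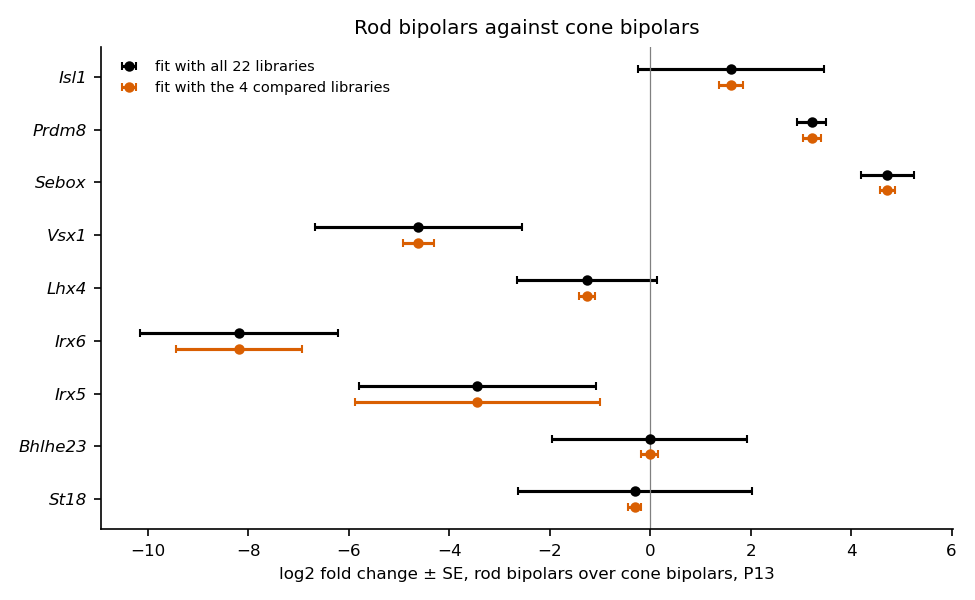
Log2 fold change with its standard error (horizontal axis), rod bipolars over cone bipolars at P13, for each of the 9 genes, from the fit to all 22 libraries (black) and from the fit to the 4 compared libraries (orange). The fold changes are the same in the 2 fits, and the standard errors of Isl1, Vsx1, Lhx4, Bhlhe23 and St18 are much smaller in the fit to 4 libraries.

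Per kilobase of exon, which assumes reads spread evenly over the exons and was not tested, the order of the 9 genes differed between the classes. In rod bipolars the mean level was highest for Isl1 at 884 CPM per kb, then Prdm8 at 277, Sebox at 261, Bhlhe23 at 136, St18 at 69.7, Lhx4 at 35.8 and Vsx1 at 4.12 CPM per kb. In cone bipolars Isl1 again had the highest level, at 288 CPM per kb, followed by Bhlhe23 at 136, Vsx1 at 97.3, St18 at 86.0, Lhx4 at 85.9, Prdm8 at 29.97 and Sebox at 9.89 CPM per kb. Irx6 and Irx5 had the lowest levels in each class.

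Of 19 other regulators of retinal neurons, 18 were in the table, and none was called higher and 2 lower in rod bipolars. The median log2 fold change was -0.50 over the 18 regulators and -0.06 over all genes tested. Six6, a homeodomain factor of the eye field, was at -1.69 ± 0.27 (adjusted p 0.00125), and Meis2, a TALE homeodomain factor, at -3.67 ± 0.48 (adjusted p 2.4e-04). The fit to the 4 compared libraries called 4 of the 18 lower and none higher: Six6 (adjusted p 0.0488), the nuclear factors Nfia (-4.47 ± 0.14, adjusted p 0.00417) and Nfib (-4.20 ± 0.40, adjusted p 0.0188), and the LIM homeodomain factor Lhx3 (-5.37 ± 0.86, adjusted p 0.0431). Meis2 was not called in that fit (adjusted p 0.0932). Nfia averaged 40.0 CPM in rod bipolars, against 884 CPM in cone bipolars. Of the 4 further Iroquois genes listed, Irx3 alone was in the table and was called lower (-7.22 ± 1.61, adjusted p 0.0130; 0.0633 in the fit to 4 libraries), at 0 and 0.0504 CPM in rod bipolars, against 3.39 and 2.73 CPM in cone bipolars.

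At P13 the group labelled bipolars could be set beside the 2 classes. Vsx1 (264 CPM), Sebox (72.8 CPM), Lhx4 (330.2 CPM) and Prdm8 (539 CPM) lay between the means of rod bipolars and cone bipolars, with no library of bipolars overlapping either class. The share of all genes that lay between the classes in this way was not counted, so these 4 cannot be set against a background. Isl1 in bipolars, at 819 and 865 CPM, lay below every library of the 2 classes. Bhlhe23 and St18 overlapped with at least 1 class.

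Irx5 and Irx6 lay above both classes. Irx5 had 14.3 and 8.24 CPM in bipolars, and its mean was 26.6 times the mean of cone bipolars and at least 191-fold above the limit for rod bipolars. The mean of cone bipolars rested on 0 reads in replicate 1 and 23 reads in replicate 2, and the ratio to replicate 2 alone was 13.3. Irx6 had 14.2 CPM in each bipolar library, 2.84 times the mean of cone bipolars. Of the 5 OFF markers, Fezf2, Tacr3 and Nxph1 had the same order, at 19.3, 16.7 and 27.1 times the mean of cone bipolars. Grik1 in bipolars lay between the classes, and Syt2 overlapped with at least 1 class. Of all genes tested, 13.4% lay above and 13.3% below both classes without overlap, so that 2 and 1 of 9 genes are close to the background. The summed Müller glia markers also differed, at 694 and 877 CPM in bipolars, 87.5 and 165 CPM in rod bipolars and 278 and 295 CPM in cone bipolars. Their part in these differences was not tested.

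**Figure D3:**
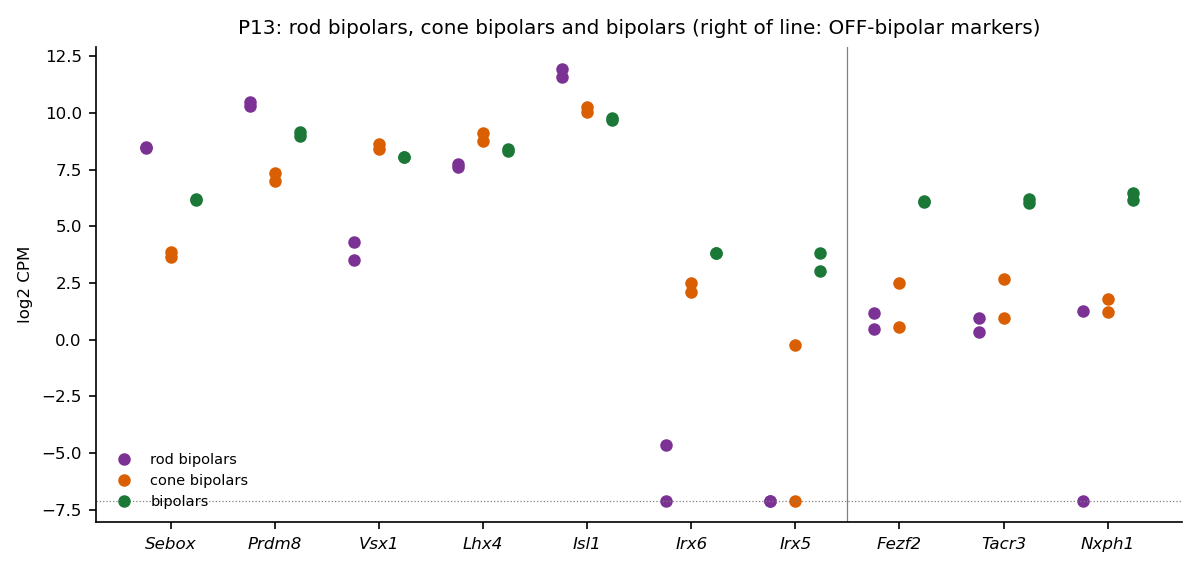
Level at P13 (log2 CPM, vertical axis) of 7 of the factors and, right of the line, of 3 of the 5 OFF-bipolar marker genes. The OFF markers Grik1 and Syt2, which did not have this order, are not drawn. There is 1 point per library of rod bipolars (purple), cone bipolars (orange) and bipolars (green). Irx6, Irx5 and the 3 OFF markers drawn are highest in bipolars, Isl1 is lowest there, and Sebox, Prdm8, Vsx1 and Lhx4 lie between the classes.

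The next comparisons asked how bipolars differed from photoreceptors at each age. The comparisons with rods and with cones share the bipolar libraries. Against rods, 8 of 9 genes were called higher in bipolars at P7, 9 at P13 and 9 at P30, where 28.4%, 40.3% and 37.7% of all genes were called. Of all genes 16.5%, 25.2% and 22% were called higher and 12%, 15% and 15.7% lower at these ages. Against cones, 5 of 9 were called higher at P7, 8 at P13 and 7 at P30, where 15.6%, 22.2% and 30.4% of all genes were called, 5.4%, 11.7% and 19.3% higher and 10.2%, 10.5% and 11.1% lower. None of the 9 was called lower. The median log2 fold change of the 9 genes at P13 was 10.54 against rods and 8.43 against cones, beside 0.27 and 0.08 over all genes tested. These medians depend on the small value added before the log for genes with few or no reads in photoreceptors. With Irx5 and Irx6, which had 0 reads in rods and cones, at their bounds they were 8.33 and 8.27. Of the 18 other regulators at P13, 11 were called higher and 4 lower against rods (median 6.19), and 6 higher and 6 lower against cones (median 1.13). Centring each library on its median gene moved the median over all genes by up to 0.13 in these comparisons and changed the direction of none of the 9 genes.

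Isl1 set bipolars apart from rods at every age. It had 953 and 1014 CPM in bipolars at P7, 819 and 865 CPM at P13 and 658 and 496 CPM at P30, while the 6 rod libraries ranged from 0.0186 to 1.95 CPM. The lowest bipolar library lay far above the highest rod library. The log2 fold changes against rods were 11.07, 14.04 and 11.88 with an SE of 1.85 each (adjusted p at most 2.8e-04), and each was called under all 11 alternatives.

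Bhlhe23 in bipolars had 318 and 309.5 CPM at P7, 452 and 368 CPM at P13 and 348 and 298 CPM at P30, against at most 0.789 CPM in any rod library. St18 had 238 and 220.4 CPM at P7, 449.9 and 429 CPM at P13 and 313 and 236 CPM at P30, against 0 reads in both rod libraries at P7 and 1 read in all at each later age. The 2 genes were thus nearly absent from rods. The mean of St18 in bipolars at P7 was at least 7302-fold above the limit set by 3 reads over the rod libraries. Vsx1 ranged from 159 to 616 CPM in the 6 bipolar libraries, against 0 to 1.58 CPM in the 6 rod libraries.

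Irx6 and Irx5 were found at low levels in bipolars at all ages. Irx5 had 14.3 and 15.03 CPM at P7, 14.3 and 8.24 CPM at P13 and 6.48 and 24.3 CPM at P30. At P13 neither gene had reads in rods or cones, so that Irx5 was at least 256-fold higher in bipolars than in rods and at least 309-fold higher than in cones, and Irx6 at least 322-fold and 389-fold higher. The call of Irx5 against rods was lost at P7 without rod replicate 1 or either bipolar library (adjusted p up to 0.268) and at P30 without rod replicate 2 or bipolar replicate 2 (up to 0.180), and in the fits to the compared libraries (0.125 at P7 and 0.0517 at P30). That of Irx6 was lost in the fit to the compared libraries at P7 (0.0780).

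In cones the 9 genes fell into groups by level. Lhx4, Prdm8 and Sebox were found in all 6 cone libraries at 25.2% to 63.0%, 16.9% to 70.9% and 9.77% to 53.0% of the mean of bipolars of the same age. The other 6 genes were at 7.13% or less. Lhx4 had 136 and 97.0 CPM in cones at P7, 117 and 83.2 CPM at P13 and 87.6 and 36.3 CPM at P30. Rods had at most 1.51 CPM of Lhx4. Between bipolars and cones, Lhx4 was not called at any age, with log2 fold changes of 0.91, 1.74 and 1.33 and an SE of 1.40 each (adjusted p 0.734, 0.395 and 0.488). At P13 the 95% interval ran from -1.23 to 4.71. In the fit to the compared libraries it was called at P13 (adjusted p 0.01).

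Rods were also set against cones at P13, to see which of these factors separate the 2 photoreceptors. Lhx4 fell in rods relative to cones, with 1.51 and 0.855 CPM in rods, against 117 and 83.2 CPM in cones (log2 fold change -6.43 ± 1.40, adjusted p 0.0034), and was called under all 11 alternatives. Prdm8 had 62.3 and 30.8 CPM in rods, against 240.1 and 202 CPM in cones (-2.33 ± 0.29, adjusted p 3.1e-05). That call was lost in the fit to the 4 compared libraries (adjusted p 0.109). Isl1 and Bhlhe23 were also called lower in rods, which made 4 of 9 lower and none higher, beside 14.1% of all genes lower and 7.1% higher (21.2% in all). Their levels in cones were low, and both calls were lost with voom (adjusted p 0.117 and 0.0729). They were also lost in the fit to the compared libraries, with library weights and without cone replicate 2, Bhlhe23 also on log2(CPM + 1) and without either replicate 1, and Isl1 without rod replicate 2.

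The low levels of bipolar factors in cones differed between replicates. In cones at P7, replicate 1 and replicate 2 had 41.7 and 1.71 CPM of Isl1, 8.57 and 1.05 CPM of Vsx1, and 11.2 and 1.32 CPM of Bhlhe23. St18 had 16.4 and 2.69 CPM there. All 4 genes were higher in replicate 1. The ON bipolar gene Grm6, at 31.5 and 1.84 CPM, was likewise higher in replicate 1, while Lhx4 and Prdm8 (148 and 133 CPM) differed little. At P13, St18 had 0 and 24.9 CPM, Isl1 2.20 and 14.1 CPM and Vsx1 0.0232 and 1.40 CPM in the 2 cone libraries. Bhlhe23, at 1.07 and 1.30 CPM, and Grm6, at 20.1 and 23.1 CPM, differed little at that age. Summed rod bipolar markers in these libraries were 19.9 and 99.0 CPM, ON markers 59.2 and 99.2 CPM and OFF markers 0.835 and 30.5 CPM. Summed amacrine markers were 6.75 and 70.7 CPM. All these sums were higher in replicate 2, while that of the cone bipolar markers was not, at 640 and 595 CPM. The part of bipolar RNA in the cone libraries was not tested. The calls against cones at P7 of Vsx1, Isl1, Bhlhe23 and Irx6 were lost without cone replicate 2 or either bipolar library (highest adjusted p 0.154, 0.212, 0.251 and 0.208), and that of Irx6 also without cone replicate 1. Irx5 (log2 fold change 4.48, adjusted p 0.213) and St18 (5.11, adjusted p 0.149) were not called against cones at P7 and were called there in the fit to the compared libraries (0.0052 and 0.0172). At P13 the call of Isl1 was lost without cone replicate 1 or bipolar replicate 2 (0.0892 at most) and that of St18 in the fit to the compared libraries (0.160). At P30 the call of Irx6 was lost without cone replicate 2, without bipolar replicate 1 and in the fit to the compared libraries (0.129 at most).

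**Figure D4:**
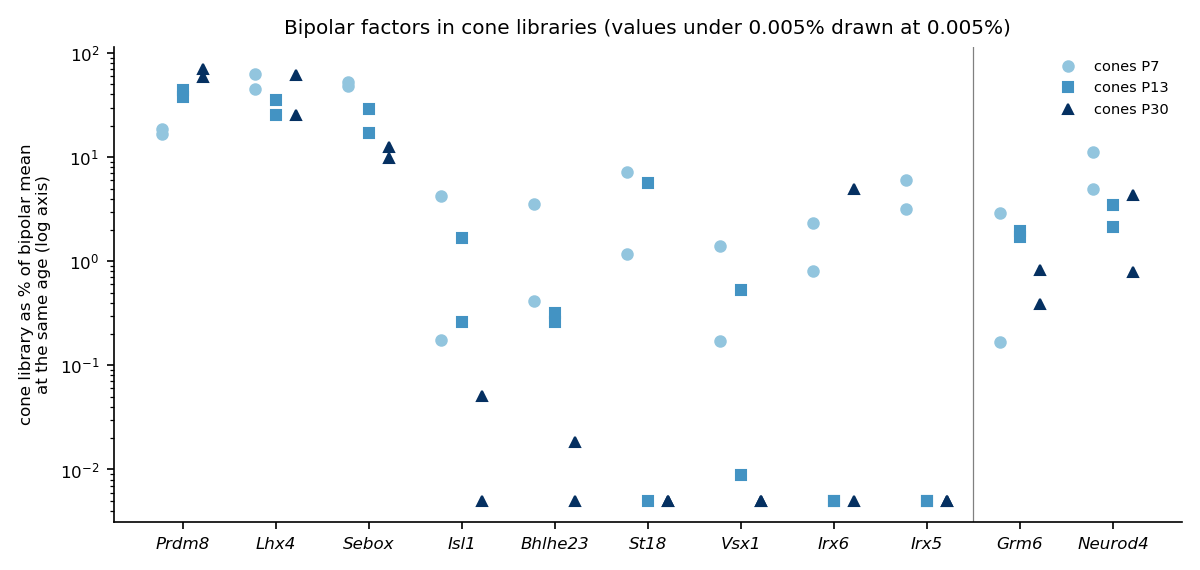
Level in each cone library as a percentage of the mean of bipolars of the same age (log axis), for the 9 factors and, right of the line, the bipolar genes Grm6 and Neurod4 for comparison. Circles, squares and triangles stand for P7, P13 and P30, and values under 0.005% are drawn at 0.005%. Prdm8, Lhx4 and Sebox stay at 9.77% or more, and the other 6 are at 7.13% or less.

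Sebox in photoreceptors was set beside its upstream neighbour Vtn, which encodes vitronectin and ends 1122 bases before Sebox on the same strand. Sebox had 2.19 and 8.81 CPM in rods at P7, 11.8 and 31.6 CPM at P13 and 21.98 and 26.2 CPM at P30. In cones it had 6.07 and 5.53 CPM, 12.4 and 21.2 CPM, and 25.7 and 20.1 CPM at these ages. The libraries of rods and cones overlapped at each age. Across the 12 rod and cone libraries Sebox was at 3.24% to 15.2% of the level of Vtn, which had 53.4 to 810.1 CPM there. In rod bipolars Vtn had 8.77 and 6.91 CPM, below Sebox in both libraries. The part of Vtn reads in the photoreceptor values of Sebox was not tested.

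Against rods, Sebox in bipolars was not called at P7 (log2 fold change 1.37 ± 0.53, adjusted p 0.0586) and rose at P13 (1.91, adjusted p 0.0083) and P30 (3.07, adjusted p 2.8e-04). The P7 value was called under 4 alternatives, with adjusted p 0.0021 to 0.0486. The P13 call was lost without rod replicate 1 (0.0956) and in the fit to the compared libraries (0.0918). Against cones, Sebox was not called at P7 (0.97, adjusted p 0.235) and rose at P13 (2.17, adjusted p 0.0069) and P30 (3.15, adjusted p 3.4e-04). The P13 call was lost without cone replicate 1 (0.0721).

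Prdm8 was present in every group. Among the 11 groups its mean was highest in rod bipolars at 1342.5 CPM, then in bipolars at P7, P30 and P13, with 789, 582 and 539 CPM, and lowest in rods at P13 and P7, with 46.5 and 43.6 CPM. The libraries of bipolars at P30 and P13 overlapped, as did those of rods at P13 and P7. Cone bipolars, at 146 CPM, were among the lowest groups and overlapped with cones at P7. Against rods, Prdm8 rose in bipolars by a log2 fold change of 4.23, 3.62 and 1.65 at P7, P13 and P30 with an SE of 0.29 each (adjusted p at most 3.2e-04). Against cones it rose by 2.49 at P7 and 1.29 at P13 (adjusted p 1.4e-05 and 0.0040) and was not called at P30 (0.63, adjusted p 0.103).

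The gap between bipolars and photoreceptors in Prdm8 thus narrowed with age, and this was tested as a difference of differences, added after the levels had been seen. Prdm8 had 851 and 728 CPM in bipolars at P7 and 609 and 555 CPM at P30. In rods it had 31.4 and 55.8 CPM at P7 and 205 and 168 CPM at P30, and in cones 148 and 133 CPM at P7 and 342 and 413 CPM at P30. The P7 to P30 change in bipolars minus that in rods was -2.59 ± 0.41 in log2 (adjusted p 6.1e-04). Minus that in cones it was -1.85 ± 0.41 (adjusted p 0.0120). Of all genes, 14.4% were called in the first of these tests (8.26% higher and 6.17% lower) and 8.31% in the other (5.8% higher and 2.51% lower), and Prdm8 was the only one of the 9 called in either. The difference from cones was lost without bipolar P7 replicate 1 (adjusted p 0.0557) or P30 replicate 2 (0.0506). The 6 Müller glia markers moved the other way in the same tests, with 4 called higher in each and medians of 4.05 and 3.21. Their sum was 173 and 167 CPM at P7 and 3987 and 6163 CPM at P30 in bipolars, 120.3 and 129.9 CPM at P7 and 247 and 129.7 CPM at P30 in rods, and 255 and 194 CPM at P7 and 620.5 and 806 CPM at P30 in cones. Their part in the result for Prdm8 was not tested.

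**Figure D5:**
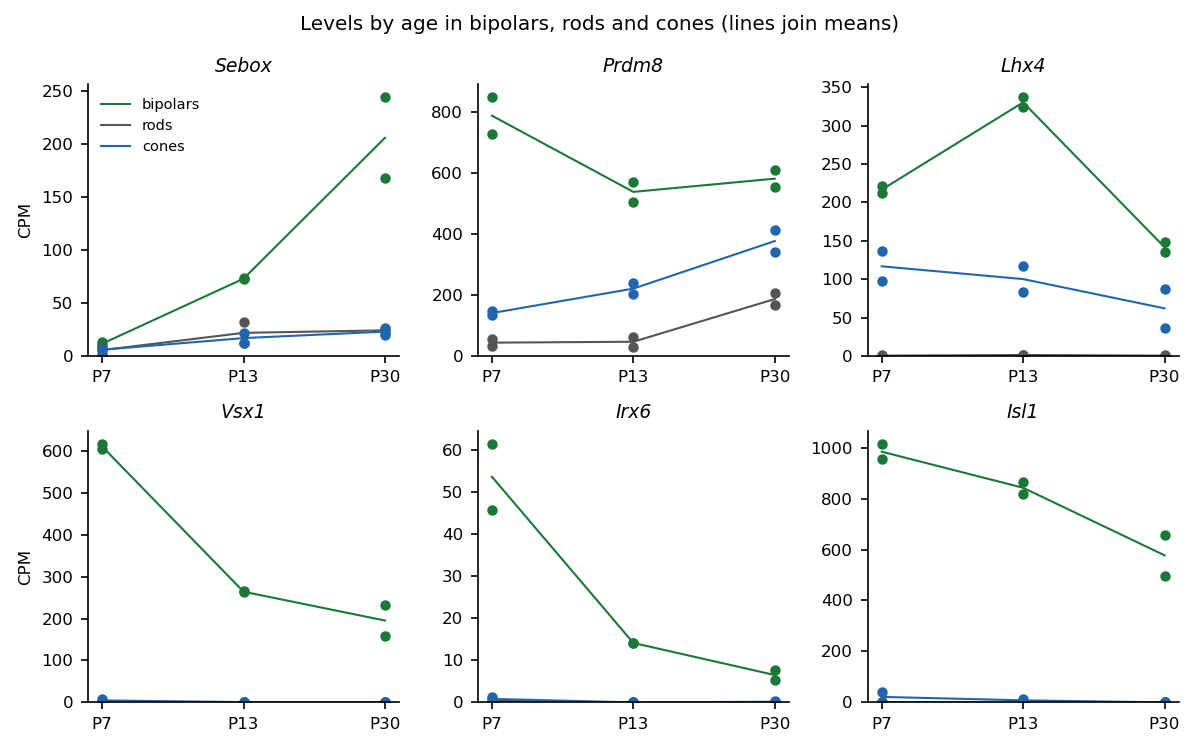
Level (CPM, vertical axes from 0) of 6 of the factors at P7, P13 and P30 in bipolars (green), rods (gray) and cones (blue), with 1 point per library and lines through the group means. Sebox climbs in bipolars, to a mean of 205 CPM at P30, and Prdm8 climbs in rods and cones, to 187 and 377 CPM. Vsx1 and Irx6 in bipolars are highest at P7, and Lhx4 is highest at P13.

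Within bipolars, successive ages were compared, and the 2 comparisons share the P13 libraries. From P7 to P13 Sebox rose and was the only one of the 9 genes called, beside 2.98% of all genes (2.3% higher and 0.686% lower). Sebox had 10.2 and 12.7 CPM at P7, 73.2 and 72.3 CPM at P13 and 244 and 167 CPM at P30. Each age lay above the one before with no overlap, an order whose share among all genes was not counted. The log2 fold change from P7 to P13 was 2.68 ± 0.53 (adjusted p 0.0086), with values of 2.52 to 2.84 when any of the 4 libraries was left out. The call was lost in each of these (adjusted p 0.0585 to 0.0899).

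From P13 to P30 none of the 9 genes was called by limma, beside 1.86% of all genes (1.4% higher and 0.47% lower). Sebox, at 1.47 ± 0.53, was the 1 gene with an unadjusted p under 0.05 (0.0140, adjusted p 0.202). With voom, Sebox was called (adjusted p 0.0063), as was Lhx4 lower at P30 (-1.22, adjusted p 0.0224), which made 2 of 9 beside 2.48% of all genes (1.81% higher and 0.671% lower). The summed Müller glia markers in bipolars were 173 and 167 CPM at P7, 694 and 877 CPM at P13 and 3987 and 6163 CPM at P30. They moved with age alongside Sebox, and their part was not tested. Rod bipolar markers in bipolars summed to 1320 and 1168 CPM at P7, 2251 and 2119 CPM at P13 and 3805 and 3191 CPM at P30.

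Vsx1 and Irx6 had their highest levels in bipolars at P7. Vsx1 had 604 and 616 CPM at P7, 263 and 265 CPM at P13 and 231 and 159 CPM at P30. Irx6 had 45.9 and 61.5 CPM at P7, 14.2 CPM in each library at P13 and 7.75 and 5.29 CPM at P30. For both genes every library lay below those of the age before. The share of all genes with such an order was not counted. From P7 to P13 the log2 fold change of Vsx1 was -1.21 and that of Irx6 -1.91. Neither was called in the fit to all libraries (adjusted p 0.934 and 0.823). In the fit to the 4 libraries of P7 and P13 both were called lower at P13 (adjusted p 0.0050 and 0.0115), which with Sebox made 1 of 9 higher and 2 lower beside 8.64% of all genes higher and 2.99% lower (11.6% in all). With voom these 3 genes were called too, beside 2.08% of all genes higher and 0.91% lower.

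Lhx4 in bipolars had 212 and 221 CPM at P7, 324 and 337 CPM at P13 and 148 and 135 CPM at P30. It was highest at P13, without overlap, an order whose share among all genes was not counted. The fit to the 4 libraries of P13 and P30 called it lower at P30 (-1.22, adjusted p 0.0354), as 1 of 9 beside 2.13% of all genes (1.56% higher and 0.574% lower), and the fit to all libraries did not (adjusted p 0.824). Isl1, Bhlhe23, Irx5 and St18 were not called between successive ages in either fit.

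Genes with a similar pattern over the 11 group means were taken by Pearson correlation among 11430 candidates, as a description, since the groups share cell types and the values share library scaling. Isl1 was most like Bhlhe23 (r = 0.993), Auts2 (0.992) and Tubg2 (0.986). Bhlhe23 was most like Tubg2, Isl1 and Vwc2l, each at 0.993, and St18 most like Rusc1 (0.995), Gpr176 (0.994) and Apoa2 (0.993). These 3 factors had high levels in all 5 bipolar groups and low levels in rods and cones. Sebox was most like Adamts5 (0.919), Sh2d5 (0.909) and Appl2 (0.908), and Prdm8 most like Pecr (0.937), Exoc3 (0.933) and Dcun1d4 (0.914). Vsx1 was most like Pcdh8 (0.980), Mgat4c (0.975) and Ccne1 (0.973), and Lhx4 most like Thsd7a (0.985), Spred2 (0.976) and Tle3 (0.975). Irx6 was most like Emc10 (0.964), March9 (0.958) and Eif4h (0.949), and Irx5 most like H2-Aa (0.932), Nelfb (0.919) and St6gal1 (0.918). Ranking by Spearman correlation kept at most 1 of these 3 genes for any factor. Among the 9 genes themselves, Irx5 and Irx6 correlated at 0.886 and Sebox and Irx6 at 0.0231.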

How the data were processed

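The deposited table holds log2 CPM for 13812 genes in 22 libraries of sorted mouse retinal cells. Per the labels' protocols, RNA was isolated with a PicoPure kit, amplified in a linear fashion and made into TruSeq libraries. The submitters' processing notes name STAR, edgeR and the mm10 (GRCm38) assembly without versions. The read counter and annotation are not stated. A gene without reads had log2 CPM of -7.10 in every library; with that floor removed, 100% of the values up to 10000 reads lay within 0.01 of whole reads. Effective library sizes were 0.608 to 1.23 times the totals. GENCODE M21 gave symbols for 13785 IDs, and the 27 others held 0.109% of reads.

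The tests used limma 3.58.1 in R 4.3.3, with an intensity trend, 1 coefficient per group and 11 residual degrees of freedom. A check on simulated data drew all libraries from the cone bipolar means with the same spread, apart from genes changed on purpose. It therefore could not check the fit where the spread differs between groups. Genes with log2 CPM of at least 0 in both libraries of a group were tested (13405 of those with a symbol, 380 left out). Alternatives were a replicate block, the compared groups alone, no filter, log2(CPM + 1), library weights, median centring, voom on recovered reads and leaving out each library; voom and the P7 to P30 differences were added after the data were seen. Named genes were the 9 factors, the 3 most alike genes of each (mean log2 CPM of at least 3 in their highest group), and list members called between rod bipolars and cone bipolars; Fezf2, Tacr3, Nxph1, Grik1, Syt2, Grm6, Vtn, Nfia, Nfib and Lhx3 were named after their values were seen. The genes, lists and tests were chosen with earlier results of these data known. Protein sequences were not analysed here, and 1 gene of the regulator list is not reported here. Intervals and limits cover counting error only, and amplified reads are not independent molecules.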

Additional observations from a re-analysis of the deposited data

Results flagged for a closer look

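The change of Prdm8 between P7 and P30 differed between bipolars and photoreceptors by a test of the difference itself. It was -2.59 in bipolars minus rods and -1.85 in bipolars minus cones (log2, adjusted p 6.1e-04 and 0.0120). Levels in bipolars were lower at P30 than at P7 in both libraries, while levels in rods and in cones were higher at P30 in both libraries. Of the 6 Müller glia markers, 4 were called higher in each of these tests (medians 4.05 and 3.21), and their part was not tested.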

How the results depend on the processing

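Over the 10 planned comparisons, the log2 fold changes of the 9 genes kept their direction and their side of the threshold in 581 values from other settings, were newly called in 34, lost the call in 14 and turned in 1. On leaving out 1 library, 313 kept both, 2 were newly called, 36 lost the call and 9 turned. All the turned values concern genes that were not called. Bhlhe23 in rod bipolars against cone bipolars was at 0.0095 with median centring and ran from -0.17 to 0.15 on leaving out 1 library. In rods against cones at P13, leaving out 1 library gave -1.77 to 3.76 for Vsx1, -0.45 to 0.96 for Sebox and -10.66 to 1.08 for St18. Irx5 in bipolars from P13 to P30 ran from -0.75 to 1.16. The labels do not say whether libraries with the same replicate number were prepared together. At P13 the summed amacrine markers were higher in replicate 2 of every group. They were 72.4 and 273 CPM in bipolars, 22.7 and 146 CPM in rod bipolars and 33.9 and 95.5 CPM in cone bipolars. Rods had 11.7 and 20.0 CPM and cones 6.75 and 70.7 CPM, while cones at P7 had 44.1 and 13.8 CPM. Over all genes, same-numbered libraries deviated together with correlations of -0.04 to 0.14. The replicate block gave 627 calls between the bipolar classes, against 628 without it. It newly called Sebox in bipolars against rods at P7 (adjusted p 0.0486).

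Counts of called genes moved by over 1.5 times as follows, and the cause was not tested. With log2(CPM + 1) the count was 1251 between rod bipolars and cone bipolars (628 in the fit to all libraries), 3242 in bipolars against cones at P7 (2088), 917 in bipolars from P7 to P13 (400) and 936 from P13 to P30 (250). With library weights it was 3941 in bipolars against cones at P7, 1295 in rods against cones (2843), 1630 from P7 to P13 and 752 from P13 to P30. With the compared groups alone it was 4083 in bipolars against cones at P7, 2643 at P30 (4077), 3511 in bipolars against rods at P13 (5397), 491 in rods against cones and 1559 from P7 to P13. On leaving out 1 library the counts ranged from 297 to 643 between the bipolar classes (361 without cone bipolar replicate 1 and 297 without replicate 2), 1291 to 1569 in bipolars against cones at P7, 1783 to 2428 at P13, 165 to 228 from P7 to P13 and 64 to 286 from P13 to P30. For the P7 to P30 change in bipolars minus rods the count was 1934, with 3230 on log2(CPM + 1) and 1241 to 1776 on leaving out 1 library (1252 and 1241 without bipolar P7 replicate 1 and replicate 2, 1275 without bipolar P30 replicate 2). Minus cones it was 1114, with 2121 on log2(CPM + 1), 1794 with the compared groups alone and 474 to 1796 on leaving out 1 library (474 and 719 without cone P7 replicate 1 and replicate 2, 1796 without cone P30 replicate 2, 502 and 492 without bipolar P7 replicate 1 and replicate 2, 520 without bipolar P30 replicate 2). A gene with 0 reads could still have been present at up to 0.0541 to 0.170 CPM per library, which limits what can be said of Irx5 and Irx6 in rod bipolars, rods and cones.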
